A study of Bos taurus with 8 samples.

Results

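The comparison was of chromatin accessibility after 8 h of LPS with that after 4 h, in peripheral blood mononuclear cells (PBMCs) of Holstein cattle. Its members were all barcodes of the 4 h LPS and the 8 h LPS scATAC-seq libraries, 3231 and 3163 nuclei of 13687 in the 4 scATAC-seq libraries, and the 11465 genes listed in both of these libraries out of 13363 listed in either. Blood from 4 lactating females of 2 years of age had been combined and then split. The split portions were kept at 37 °C without LPS or, for 2 h, 4 h or 8 h, with LPS (2 µg/ml), and PBMCs were taken from each portion afterwards for scRNA-seq and scATAC-seq. Each treatment gave 1 library in each assay, and every library holds the same 4 animals. No replicate check was therefore possible, and the intervals given here (95%, exact) cover counting error only.

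In scATAC-seq a transposase cuts DNA where it is not packed away, so that the counts on a gene report how open the chromatin at that gene is. LPS, the outer membrane component of Gram-negative bacteria, is sensed by TLR4 with CD14 and LY96, and the signal runs through adaptors and kinases to the NF-kB and AP-1 transcription factors. Another branch of the same receptor acts through IRF factors, induces interferon and so turns on the interferon-stimulated genes, a group of antiviral effectors and sensors.

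The 4 h library held 26837579 counts, with a median of 5205 counts and 1961 genes per nucleus. The 8 h library held 11957904 counts, with a median of 2250 counts and 927 genes per nucleus, so that a nucleus of the 8 h library was much shallower. When nuclei were thinned to 1000 counts each, which left out 321 nuclei at 4 h and 520 at 8 h, the median was 821 genes at 4 h and 721 genes at 8 h. Only 12 barcodes occurred in both libraries. Genes without a UMI in any of the 4 scRNA-seq libraries took 1.2% of the counts at 4 h and 1.3% at 8 h. Levels are given as counts per 1000000 counts on the shared genes (CPM), and ratios as log2 of (CPM + 1) at 8 h over (CPM + 1) at 4 h. Values of the 2 h and no LPS libraries are given beside some genes, and the no LPS library was thin, with 975012 counts.

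The labelled cell type was checked against marker genes. Markers of T cells summed to 1021 CPM at 4 h and 801 CPM at 8 h over the 9 markers with enough counts, and those of B cells to 1063 and 853 CPM over 11. NK cell markers summed to 316 and 311 CPM over 3 genes, with a median of 32.2 and 22.1 CPM. The sum was mostly TYROBP, found in 45.5% of unthinned nuclei at 4 h, against 10.1% for PRF1 and 6.28% for NKG7. Monocyte markers summed to 56.0 and 38.8 CPM over 3 genes. CD14, which defines monocytes, was listed only at 4 h, with 420 counts, and S100A9 likewise with 151 counts. The erythroid factor KLF1 had 7.95 and 6.12 CPM and the platelet integrin ITGA2B 12.9 and 1.01 CPM. Genes of other tissues were not at 0, since the liver gene FGB had 86.2 CPM at 4 h and 113 CPM at 8 h with almost no RNA. The median of the 5 genes of other tissues with enough counts was 14.7 CPM at both times. Marker medians were 80.3 and 51.6 CPM for T cells and 96.0 and 59.1 CPM for B cells, so that FGB lay above both at 8 h. The T cell markers CD8A and CD8B were listed only at 4 h, with 23 and 93 counts. Most lymphocyte markers thus had counts in both libraries, not all of them above FGB, while monocyte genes were few and low. In summed libraries, fewer nuclei of a type and less signal per nucleus cannot be told apart.

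Most genes had almost the same share of the counts at both times. Of 11404 genes with at least 100 counts over the 2 libraries, 9885 (86.7%) lay within 1.5-fold, and the median log2 ratio was -0.01 with quartiles of -0.27 and 0.15. There were 156 genes at least 1.5-fold higher at 8 h (1.37% of the genes) and 1363 at least 1.5-fold lower (12.0%). At 2-fold the numbers were 78 and 652. With at least 1000 counts, 58 genes of 8943 were higher and 512 lower.

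Genes past 1.5-fold in either direction were most frequent among genes with few counts, and lower genes outnumbered higher ones at every level. When the genes were ordered by level and divided into 8 groups of equal size, the median log2 ratio was -0.43 in the lowest group and 0.10 in the highest. In the lowest group, with a median of 10.5 CPM at 4 h, 41.9% of the genes were at least 1.5-fold lower at 8 h, against 1.68% in the highest, with a median of 219.6 CPM. Higher genes made up 4.63% of the lowest group (66 genes, against 597 lower) and 0.561% of the highest (8 genes, against 24 lower). After the median of each group was taken off, 360 genes were higher and 958 lower, so that higher genes were 27.3% of those past 1.5-fold in place of 10.3%. Depth per nucleus differed between the libraries in the same comparison, and its part in this trend was not tested.

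**Figure D1:**
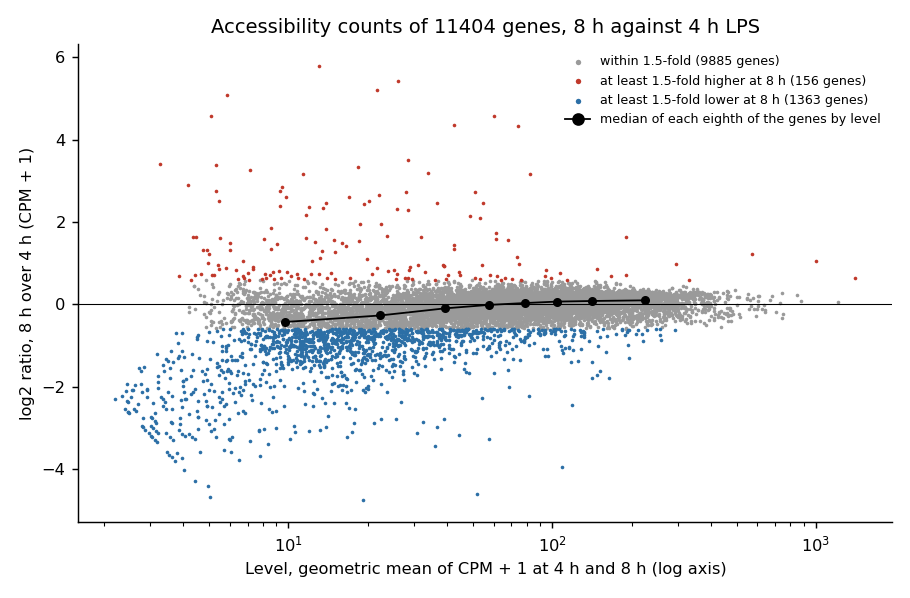
Each point is 1 of 11404 genes, with its level (geometric mean of CPM + 1 at 4 h and 8 h, log axis) on the x axis and its log2 ratio of 8 h over 4 h on the y axis, and the black line joins the medians of the 8 groups by level. The line climbs from -0.43 at the lowest level to 0.10 at the highest, and of the 156 higher genes 66 are in the lowest group and 8 in the highest.

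Many of the largest differences in both directions were on genes that lie next to each other. CARM1, an arginine methyltransferase that acts as a transcriptional coactivator, had 11.3 CPM at 4 h and 292 CPM at 8 h, a log2 ratio of 4.57. Its neighbour in RefSeq order, C7H19orf38, had 253 CPM at 4 h and 9.56 CPM at 8 h, a log2 ratio of -4.59. The sum of both genes was 264 CPM at 4 h and 302 CPM at 8 h, so that the total of the pair was almost the same while most of its counts were on the other gene. The 2 h library had 9.56 CPM on CARM1 and 261 CPM on C7H19orf38, close to the 4 h library. The no LPS library had 228 and 1.03 CPM, close to the 8 h library.

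JUNB, an AP-1 subunit and immediate early gene, was part of such a pair. It was not listed at 4 h or at 2 h, while at 8 h it had 5303 counts, or 445 CPM, and without LPS 405 CPM. Its neighbour PRDX2, a peroxiredoxin that removes peroxide, had 429 CPM at 4 h and 505 CPM at 2 h, and 26.8 CPM at 8 h and 22.8 CPM without LPS. Both together had 429 CPM at 4 h and 472 CPM at 8 h. PRDX2 thus had the third largest lower value among genes with at least 1000 counts, and JUNB had the most counts of the genes listed only at 8 h, at a locus whose total differed little.

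EIF4A1, the RNA helicase of translation initiation, had 15.6 CPM at 4 h and 333 CPM at 8 h. Its neighbour SENP3, a SUMO protease, had 284 CPM at 4 h and was not listed at 8 h, which gave 299.9 CPM for both genes at 4 h. SENP3 also had no entry without LPS, where EIF4A1 had 289.6 CPM.

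Other members of the 10 largest higher values had the same kind of partner. CNP, a phosphodiesterase best known from myelin, had 2.60 CPM at 4 h and 131 CPM at 8 h, while its neighbour TTC25 had 174 and 36.9 CPM. PPP1R18, a regulatory subunit of a phosphatase, had 26.6 and 247 CPM, while NRM, which encodes a protein of the nuclear envelope, had 262 and 74.7 CPM. The no LPS library departed from the 8 h library here, with 35.2 CPM on PPP1R18 and 362 CPM on NRM.

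TAGLN2, an actin-binding protein, had 7.42 CPM at 4 h and 94.9 CPM at 8 h, against 131 and 13.8 CPM for its neighbour IGSF9. FBXO9, a subunit of a ubiquitin ligase, had 10.3 and 101 CPM, against 118 and 23.7 CPM for CILK1. HSPA2, a heat shock chaperone, had 9.91 and 70.9 CPM, against 86.4 and 11.1 CPM for ZBTB1. Each of these pairs kept its summed level within 1.5-fold between 4 h and 8 h.

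**Figure D2:**
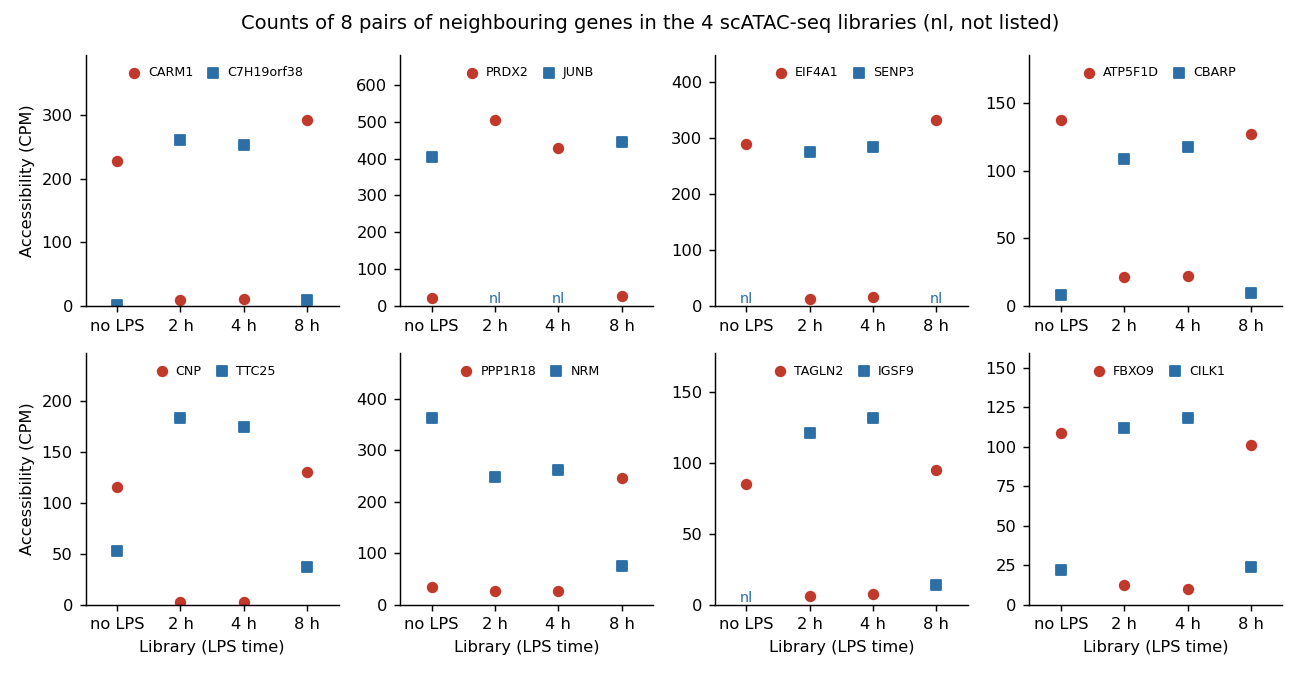
CPM (y axis, from 0) of 8 pairs of neighbouring genes in the no LPS, 2 h, 4 h and 8 h scATAC-seq libraries, with circles for the gene named first, squares for its neighbour and nl for a gene not listed in that library. In 7 of the 8 pairs, all but PPP1R18 with NRM, the gene that holds most of the counts is the same at 2 h and 4 h and is the other gene at 8 h and without LPS. Not all pairs are drawn. Of those left out, HSPA2 with ZBTB1 follows the 7, while NIPAL3 with STPG1 and CD22 with FXYD5 resemble 4 h in the no LPS library.

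Among genes at least 2-fold higher with at least 1000 counts, 19 had a place in RefSeq order. Of these, 13 (68.4%) had a gene within 3 places that was at least 2-fold lower, or listed only at 4 h, by 0.5 to 2 times as much in CPM, with the summed level of both within 1.5-fold. A gene of that description lay beside 12.6% of all 8330 genes with at least 1000 counts and a place. Among genes at least 2-fold lower, 25 of 150 (16.7%) had such a neighbour on the higher side, against 0.816% of all 8330. Without the limits on counts, size and sum, 33.3% of 57 higher genes had a gene at least 2-fold lower within 3 places, against 24.3% of all 10381 genes with a place. At 1.5-fold the shares were 38.0% of 121 higher genes and 45.6% of all within 3 places, and 19.0% and 18.8% next to the gene. The share among higher genes was thus above that of all genes at 2-fold, but below it or nearly equal at 1.5-fold. When each gene was summed with the genes on either side of it, 55 genes were at least 1.5-fold higher and 354 lower of 10381, and the log2 ratio of CARM1 fell from 4.57 to 0.18. The genes of these pairs that are outside the 10 largest values each way were named after their values were seen.

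Other large higher values had no close partner. CACFD1, which holds a calcium channel domain, had 0.75 CPM at 4 h, 96.1 CPM at 8 h and 101 CPM without LPS, and its only partner was VAV2, which was not adjacent and gave a sum of 102 and 143 CPM. PRDX5, a peroxiredoxin, had 2.98 CPM at 4 h, 170.4 CPM at 8 h and 150.0 CPM without LPS, and no partner. USF1, a transcription factor named here after its values were seen, had 18.8 CPM at 4 h, 129 CPM at 8 h and 182 CPM without LPS. PRDX5 and CACFD1 were not listed at 2 h, and USF1 had 17.9 CPM there.

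A separate set was of genes without RNA. Of 391 such genes with at least 100 counts, 64 (16.4%) were at least 1.5-fold higher at 8 h, against 1.37% of all genes, and 91 (23.3%) were lower, against 12.0%. The median log2 ratio of all 391 was -0.10. The 64 genes, which were chosen as higher at 8 h, had a median of 5.65 CPM at 4 h, 20.2 CPM at 8 h and 24.8 CPM without LPS. CSMD3, a very large membrane protein gene, had 22.1 CPM at 4 h and 102 CPM at 8 h, with 10.7 CPM at 2 h and 118 CPM without LPS. LRP1B, a large receptor of the LDL receptor family, had 4.75 CPM at 4 h and 57.3 CPM at 8 h, with 0 at 2 h and 76.5 CPM without LPS. PCDH15, a protocadherin of sensory hair cells, had 7.46 and 47.4 CPM. The 3 genes had no UMI in any scRNA-seq library. PDE5A, the phosphodiesterase of cyclic GMP, was of much higher level, with 373 CPM at 4 h and 868 CPM at 8 h, 257 CPM at 2 h and 1685 CPM without LPS, at an RNA level of 0.25 and 0.61 CPM. The genes named here were picked as higher at 8 h. Their values were also higher in the other shallow library, no LPS, than at 4 h, and the part of depth was not tested.

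The 10 largest lower values included lymphocyte genes. KCNA3, the voltage-gated potassium channel of T cells, had 49.9 CPM at 4 h and 4.45 CPM at 8 h, with 45.0 CPM at 2 h and 0 without LPS. CD22, an inhibitory receptor of B cells, had 49.6 and 4.95 CPM. Its neighbour but one FXYD5 had 25.6 and 66.2 CPM, a sum of 75.3 and 71.1 CPM for both. Without LPS, CD22 had 29.0 CPM and FXYD5 8.27 CPM, so that CD22 held more of the counts, as at 4 h. FXYD7, which lies next to FXYD5, had 48.6 CPM at 4 h and no entry at 8 h, so that FXYD5 cannot be assigned to CD22 alone. SRGAP2 had 36.8 and 3.61 CPM, and GNG8, a G protein subunit, 89.5 and 9.48 CPM, both without a partner. Of KCNA3, CD22, SRGAP2 and GNG8, the RNA lay within 1.5-fold of its 4 h level except for GNG8, which was near 0. NIPAL3 had 98.4 CPM at 4 h and 2.68 CPM at 8 h, and its neighbour STPG1 34.2 and 105 CPM. Without LPS, NIPAL3 had 70.3 CPM and STPG1 26.9 CPM, so that NIPAL3 held more of the counts, as at 4 h. CBARP, a regulator of calcium channels, had 117 and 9.98 CPM, and its neighbour ATP5F1D, a subunit of the ATP synthase, 22.3 and 127 CPM. STOML1, of the stomatin family, differed from the rest in that only the 4 h library was high, with 178 CPM against 21.5 CPM at 2 h, 17.6 CPM at 8 h and 44.5 CPM without LPS.

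RNA did not move with accessibility over the genes at large. For 8445 genes whose UMIs at 4 h and 8 h came to 100 or more in scRNA-seq, the Spearman correlation of the accessibility and RNA log2 ratios was -0.04, a description across genes that share their 4 libraries. At least 1.5-fold more RNA at 8 h was found for 339 of these genes (4.01%) and less for 113 (1.34%). Of 49 genes with higher accessibility, 4 had more RNA and 1 less. Of 651 genes with lower accessibility, 60 had more RNA and 29 less.

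The 10 lists of genes of the LPS response were then read, each against the 1.37% and 12.0% of all genes. They were the receptor with its adaptors, NF-kB, AP-1, IRF and STAT factors, inflammatory genes, interferon-stimulated genes, negative regulators, MHC class II, lymphocyte quiescence and homing factors, and myeloid factors.

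**Figure D3:**
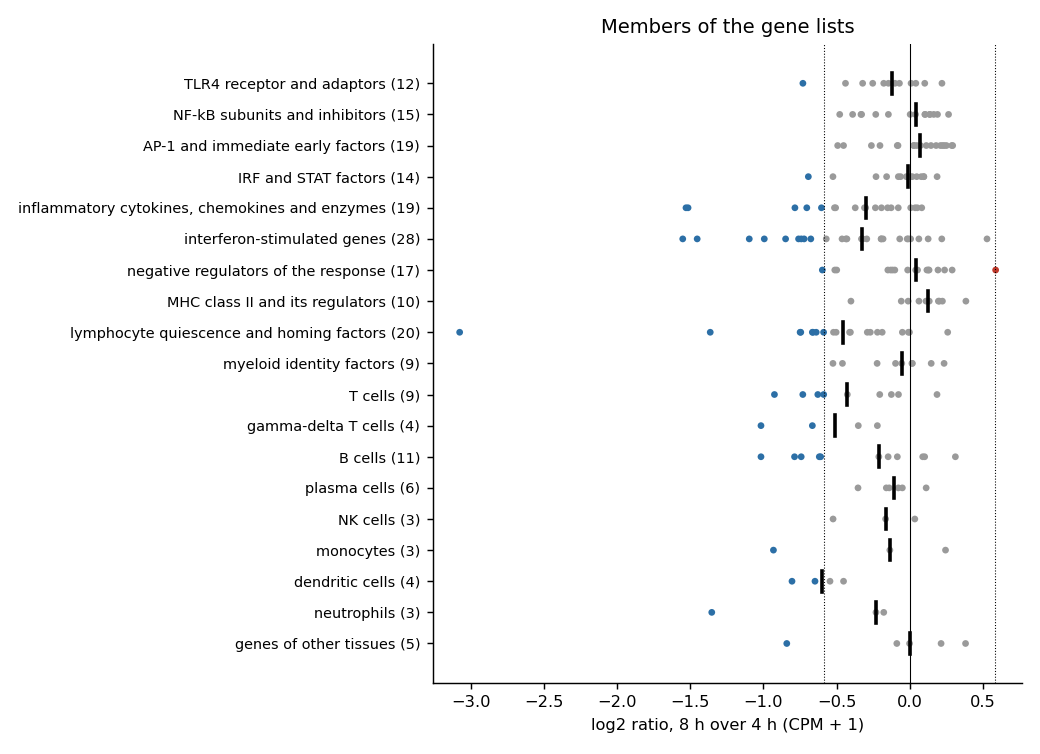
Each point is a gene of a list, with its log2 ratio of 8 h over 4 h on the x axis and the number of genes of the list in brackets, black bars are medians, dotted lines mark 1.5-fold, and red and blue points lie outside them. Interferon-stimulated genes, inflammatory genes and lymphocyte quiescence and homing factors lie mostly left of 0, and the NF-kB and AP-1 lists lie around 0.

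The receptor genes TLR4 and LY96 were listed at both times. TLR4, the receptor of LPS, had 62.6 CPM at 4 h (1662 counts) and 37.3 CPM at 8 h (445 counts), a log2 ratio of -0.73 with a counting interval of -0.97 to -0.53, after 52.7 CPM without LPS and 58.3 CPM at 2 h. LY96, its partner protein, had 37.8 and 31.5 CPM with an interval of -0.51 to -0.02, and a ratio of 0.34 when summed with its neighbours. CD14 had no entry at 8 h. TLR4 was thus lowest at 8 h among the 4 libraries, while its RNA was 18.9 CPM at 4 h and 24.6 CPM at 8 h.

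Of the 12 receptor, adaptor and kinase genes, 1 (TLR4) was at least 1.5-fold lower and 0 were higher, with a median log2 ratio of -0.12. The kinase IRAK1 had 32.4 and 23.7 CPM, and the adaptor TICAM2, which links TLR4 to the interferon branch, 35.5 and 28.2 CPM. IRAK4, the first kinase of the chain, was higher, with 112 and 131 CPM. The adaptors MYD88 and TIRAP were listed only at 4 h, with 26 and 42 counts.

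Genes of NF-kB had nearly the same accessibility at both times. The median log2 ratio of the 15 subunits and inhibitors was 0.04, and 0 of them passed 1.5-fold in either direction. NFKB1 had 197 CPM at 4 h and 149.7 CPM at 8 h, while RELB, REL and NFKB2 had 248 and 273, 228 and 256, and 276 and 297 CPM. The inhibitor NFKBIA had 269.6 and 290.2 CPM, and TNFAIP3, an ubiquitin-editing brake on the pathway, 192 and 192 CPM. IKBKE, a kinase shared with the interferon branch, had the largest log2 ratio in size, -0.48, with 88.0 and 62.8 CPM. IKBKB, a kinase of the inhibitor, had 115 and 91.1 CPM, and TNIP1, a partner of TNFAIP3, 112 and 88.5 CPM. RNA was at a log2 ratio below 0 for 12 of the 15 genes, such as RELB with 162 CPM at 4 h and 106 CPM at 8 h, and for 43.9% of the 8445 genes.

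AP-1 and immediate early factors were also close to 1. The median log2 ratio of 19 genes was 0.07 and 0 of them passed 1.5-fold. JUND had 325 and 399 CPM, with a log2 ratio of 0.29 and an interval of 0.22 to 0.37. FOSB had 227 and 277 CPM and JUN 361 and 426 CPM. MAFK had 73.8 and 52.2 CPM, and BATF3, a factor of dendritic cells and T cells, 37.0 and 26.8 CPM. JUNB is not among the 19, since it had no entry at 4 h. After the median of each gene's level group was taken off, the list lay 0.03 below all genes in place of 0.08 above.

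IRF and STAT factors had a median log2 ratio of -0.01 over 14 genes. STAT4, which carries IL-12 signals in T and NK cells, was the single gene past 1.5-fold, with 125 CPM at 4 h and 76.7 CPM at 8 h and a log2 ratio of -0.69. IRF8 had 61.4 and 42.4 CPM and STAT5A 107 and 91.4 CPM, while IRF3 had 176 and 201 CPM.

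Interferon-stimulated genes listed at both times mostly had lower accessibility, and had less RNA, at 8 h. Of 28 genes, 9 (32.1%) were at least 1.5-fold lower and 0 higher, and the median log2 ratio was -0.33. Not among the 28 are ISG15, listed only at 8 h with 483 counts, and MX1 and GBP4, listed only at 4 h with 163 and 209 counts. The counting interval lay below 1 for 18 genes and above 1 for 2, HERC5 and TRIM21, against 29.2% below 1 and 24.0% above 1 over all 11404 genes. In scRNA-seq all 28 genes were lower at 8 h, 25 of them by at least 1.5-fold, with a median log2 ratio of -1.50 for RNA, against 0.03 for the 8445 genes.

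OAS1X, which makes the messenger that switches on RNase L, had 16.5 CPM without LPS, 29.6 CPM at 2 h, 35.8 CPM at 4 h and 16.2 CPM at 8 h. DHX58, a sensor of viral RNA, had 35.2, 40.3, 49.9 and 27.3 CPM in the same order, and IFI6, a small membrane protein, 35.2, 51.0, 58.5 and 35.1 CPM. EIF2AK2, the kinase that halts translation on viral RNA, had 14.5, 25.2, 33.1 and 19.4 CPM. These 4 genes were picked for the size of their 8 h to 4 h ratio. They were highest at 4 h, and at 8 h they lay within 1.5-fold of their level without LPS. So did 8338 of the 10928 genes with at least 100 counts that were listed without LPS. The no LPS library was thin, and the values of the 4 genes in it rest on few counts. The log2 ratios of these 4 genes for 8 h over 4 h were -1.10, -0.85, -0.72 and -0.74, and that of IFI6 was 0.037 when summed with its neighbours. Their RNA was 45.4, 60.7, 186 and 111 CPM at 4 h and 12.2, 20.0, 98.9 and 41.8 CPM at 8 h. Other members lay away from their level without LPS, in both directions. Accessibility of RSAD2 was 23.8 CPM without LPS and 61.5 CPM at 8 h, and that of IFI44 was 64.1 and 5.62 CPM.

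Some genes of the group had a large difference in RNA beside a small one in accessibility. MX2, a GTPase that blocks viruses, had 148 and 141 CPM in accessibility, with an interval of -0.19 to 0.05, while its RNA was 294 CPM at 4 h and 56.2 CPM at 8 h. IFIH1, an RNA sensor, had 179 and 187 CPM, with RNA of 235 and 65.5 CPM. RSAD2, an antiviral enzyme, was at the median of the list in accessibility, with 77.3 and 61.5 CPM and a log2 ratio of -0.33, and had RNA of 106 and 17.9 CPM. The list without the effect of level, by the median of each gene's level group, still had a median of -0.31. With each gene summed with its neighbours it lay 0.15 below all genes in place of 0.32.

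**Figure D4:**
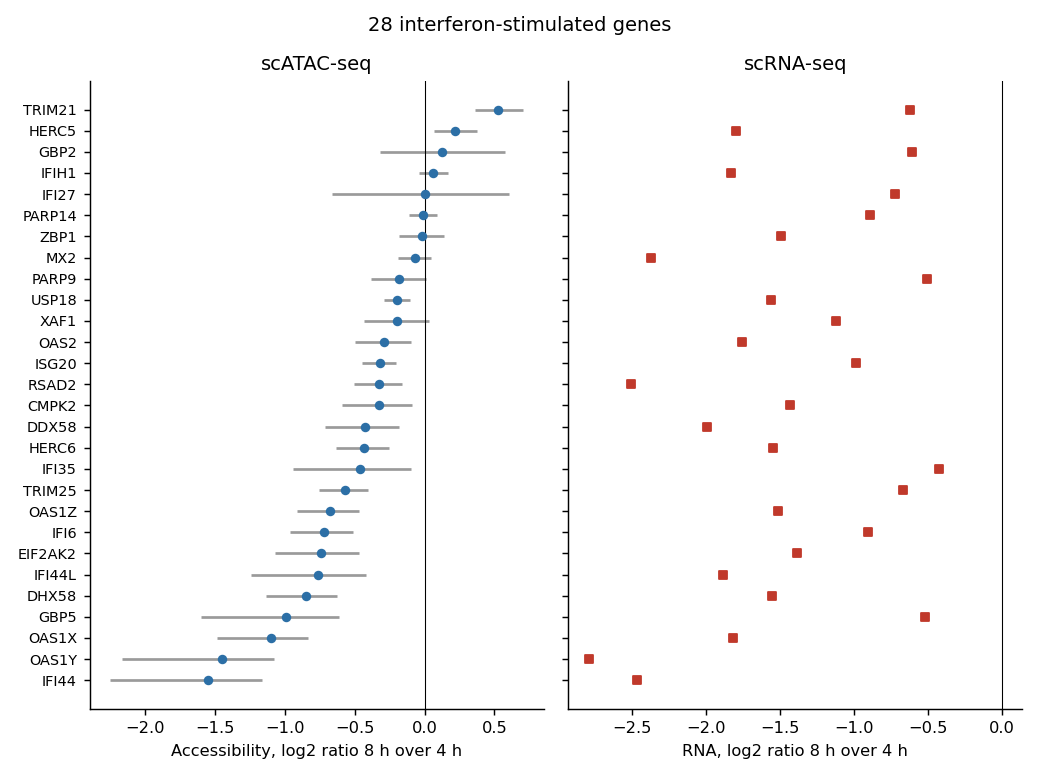
Log2 ratios of 8 h over 4 h LPS for 28 interferon-stimulated genes, with accessibility on the left (points, and lines for the 95% counting interval of the CPM ratio without the added 1) and RNA on the right (squares). All 28 squares lie left of 0, and 18 accessibility intervals lie wholly left of 0.

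Inflammatory genes were lower or near 1. Of 19 cytokine, chemokine and enzyme genes, 5 (26.3%) were at least 1.5-fold lower and 0 higher, with a median log2 ratio of -0.30, and 10 more of the 39 genes of the list were listed only at 4 h, among them CXCL8 with 472 counts and IL1B with 53 counts. Over all genes, 1790 of the 13363 listed in either library (13.4%) were listed only at 4 h. CCL3, a chemokine of monocytes and lymphocytes, had 40.9 and 28.5 CPM. IL10, an anti-inflammatory cytokine, had 79.2 and 61.0 CPM, IL23A 42.3 and 34.0 CPM, and TNF 49.5 and 40.0 CPM, with an interval of -0.53 to -0.10. RNA of IL10 was 53.2 CPM at 4 h and 77.7 CPM at 8 h. SOD2, the mitochondrial superoxide dismutase, had the highest level of the list, with 217 and 222 CPM. The 5 lower genes were of low level, among them LIF with 18.6 and 5.79 CPM and IL1A with 8.10 and 2.18 CPM, while RNA was at least 1.5-fold lower for 0 of 16 genes and higher for 2, OSM with 12.4 and 29.7 CPM and CCL1 with 1.91 and 12.2 CPM. The median log2 ratio of RNA over the 16 genes was 0.23.

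Negative regulators of the response included the single list gene past 1.5-fold on the higher side. ZFP36, which binds and destabilises cytokine mRNAs, had 269 CPM at 4 h and 404 CPM at 8 h, a log2 ratio of 0.59 with an interval of 0.51 to 0.67, and 503 CPM without LPS. It was not listed at 2 h, and its ratio was 0.20 when summed with its neighbours and 0.39 when each nucleus was weighted equally. SOCS1, a brake on cytokine signals, had 159 and 195 CPM. TSC22D3 and FKBP5, both known as glucocorticoid-responsive genes, had 226 and 149 CPM and 117 and 82.4 CPM. The median over the 17 genes was 0.04.

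MHC class II genes and their regulators had a median log2 ratio of 0.12 over 10 genes, and 0 passed 1.5-fold. BOLA-DRA had 53.4 and 62.5 CPM and CD74, the invariant chain, 146 and 161 CPM. CIITA, the coactivator that switches these genes on, had 223 and 169 CPM, a log2 ratio of -0.40. RFXAP and RFXANK, which encode subunits of the factor on the class II promoters, had 73.7 and 96.5 CPM and 111 and 127 CPM.

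Lymphocyte quiescence and homing factors were the list with the lowest median, -0.46 over 20 genes. Of these, 8 (40.0%) were at least 1.5-fold lower, 0 were higher, and 16 had a counting interval below 1, against the 29.2% of all genes. BCL11B, which sets T cell identity, had 253 CPM at 2 h, 200.5 CPM at 4 h, 77.3 CPM at 8 h and 45.5 CPM without LPS, a log2 ratio of -1.36 with an interval of -1.52 to -1.23, and of -0.30 when summed with its neighbours. LEF1, a T cell factor of the Wnt pathway, had 258, 243, 145 and 26.9 CPM in the same order. GATA3, a master factor of T helper cells, had 175, 161, 101 and 65.2 CPM, and IL7R, the receptor of the survival cytokine IL-7, 53.7, 41.0, 24.0 and 21.7 CPM. The 4 genes were highest at 2 h and lowest without LPS.

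RNA of BCL11B, LEF1 and IL7R lay close to its 4 h level, while that of GATA3 was lower by about as much as its accessibility. BCL11B had 9.51 CPM of RNA at 4 h and 10.4 CPM at 8 h, LEF1 41.1 and 43.8 CPM, and IL7R 603 and 537 CPM. GATA3 had 66.9 and 44.4 CPM, a log2 ratio of -0.58 for RNA beside -0.67 for accessibility. Over the list, RNA was at least 1.5-fold lower for 0 of 20 genes and higher for 1, and it was below 0 on the log2 scale for 14 of the 20, with a median of -0.11. T cell markers moved with the list in accessibility. Their median log2 ratio was -0.43 over 9 genes, and 4 of them were at least 1.5-fold lower. The γδ T cell markers had a median of -0.51 over 4 genes. GATA3 is among these 4 and is also a member of the list, and BLK is also a B cell marker, so that this median is not separate from them. The T cell markers summed to 508 CPM without LPS, the lowest of the 4 libraries. The γδ T cell markers summed to 191 CPM at 8 h and 206 CPM without LPS, which the thin no LPS library cannot put in order. The part of T cell number in the list was not tested.

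Counting each gene once per nucleus changed the result of this list. Its median then lay 0.015 above that of all genes in place of 0.45 below, and the log2 ratio of BCL11B was -0.66. At 1000 counts per nucleus, BCL11B was found in 404 of 2910 nuclei at 4 h (13.9%, exact binomial interval 12.6 to 15.2) and in 158 of 2643 at 8 h (5.98%, 5.10 to 6.95). Without thinning the shares were 35.1% and 12.3%. LEF1 was found in 16.8% and 10.3% at 1000 counts. Of the 5 genes of other tissues, which were read as background, FGB was found in 7.29% and 8.74%, above BCL11B at 8 h. The other 4 were below it, with 2.31% at 8 h for SYN1, 1.06% for KRT10, 0.568% for SNAP25 and 0.530% for GCG.

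**Figure D5:**
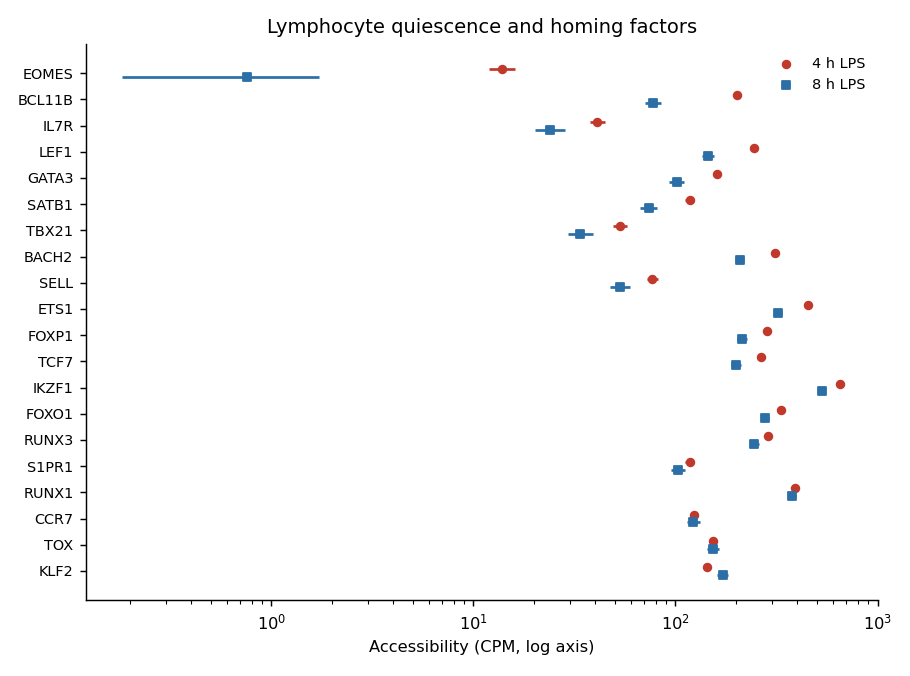
CPM (x axis, log) of 20 lymphocyte quiescence and homing factors at 4 h (circles) and 8 h LPS (squares), with lines for the exact 95% counting interval where it is wider than the symbol. BCL11B, IL7R, LEF1 and GATA3 are lower at 8 h, and KLF2 is the gene whose value at 8 h is the higher.

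Factors of myeloid identity had a median log2 ratio of -0.05 over 9 genes, and 0 passed 1.5-fold. SPI1, the master factor of myeloid cells, had 108 CPM at 4 h and 78.0 CPM at 8 h, while its RNA was 60.0 and 83.7 CPM. CEBPB had 125 and 139 CPM, and ID2, a factor of innate lymphocytes and dendritic cells, 127 and 150.1 CPM.

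B cell markers were mixed. MS4A1, which encodes CD20, had 96.0 and 103 CPM, and CD79A 72.2 and 68.0 CPM. EBF1, the master factor of early B cells, had 240 and 157 CPM, the adaptor BLNK 103 and 59.1 CPM, and the kinase BLK 103 and 50.2 CPM. Over 11 genes the median log2 ratio was -0.21 and 5 were at least 1.5-fold lower. Plasma cell markers had a median of -0.11 over 6 genes, NK cell markers of -0.16 over 3, monocyte markers of -0.14 over 3, neutrophil markers of -0.23 over 3 and dendritic cell markers of -0.60 over 4, 2 of which were at least 1.5-fold lower. The 5 genes of other tissues had a median of -0.00, with SNAP25, a gene of neurons, at 14.5 and 7.63 CPM and FGB higher at 8 h. The erythroid and platelet lists had 1 gene each, KLF1 and ITGA2B, with log2 ratios of -0.33 and -2.79.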

How the data were processed

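PBMCs of pooled cattle blood were measured by scATAC-seq and scRNA-seq, with 1 library per treatment. The authors deposited raw counts per gene and barcode for both assays, and the submitters' processing notes name Cell Ranger and the genome build ARS-UCD1.2 (bosTau9). The rule that assigned scATAC-seq counts to genes, and the reason that each library lists its own genes, are not given in the sources used here. Whether neighbouring or overlapping genes share counts, and whether strand was used, is therefore unknown, and coordinates are not printed.

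All deposited barcodes were summed per gene, with no filter on nuclei and no doublet removal. Sums were scaled to 1000000 over genes listed in both libraries, and gene names came from the scRNA-seq tables by Ensembl ID, which held a name for 10503 of the 11465 genes. Ratios used a pseudocount of 1 CPM and genes with at least 100 counts over both libraries. Since most values were even (8.15% of values above 0 were odd at 4 h and 10.6% at 8 h), which is what cut ends counted in pairs would give, counting intervals were computed from halved counts, as the exact conditional binomial interval of the CPM ratio without the pseudocount. With 1 library per time, no test was made. RNA CPM was computed over all genes and barcodes of a scRNA-seq library. Neighbours were taken from gene order in RefSeq (another assembly), in which 10429 of the shared genes were placed.

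Named genes were the 10 highest and 10 lowest log2 ratios among genes with a symbol, at least 1000 counts and an interval that excludes 1, up to 4 genes of each response list with the largest ratio in size and at least 1000 counts, and TLR4, CD14 and LY96. Other list members are named as examples. Some genes that these rules name are not reported here. The comparison, the members and the lists were chosen with earlier results of these data known. Alternatives were TMM (edgeR 4.0.16) and DESeq2 1.42.0 size factors, thinning of the 4 h library, single counts per nucleus, equal weights per nucleus, filters on barcodes and genes, a pseudocount of 0.1 and a 2-fold limit. Centring by level and summing with adjacent genes were chosen after seeing the data. Ratios and intervals were tested on simulated counts. Python 3.11.15, numpy 2.4.6, scipy 1.17.1, pandas 2.3.3 and R 4.3.3 were used.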

Additional observations from a re-analysis of the deposited data

Results flagged for a closer look

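Signal was present on genes that the comparison does not use, since they were listed at 8 h and not at 4 h. There were 108 such genes, of which 8 had at least 1000 counts, and 85 of the 108 were listed in the no LPS library and 35 in the 2 h library. JUNB had 5303 counts, TBCB, a tubulin-folding cofactor, 2943 counts and ZBTB22, a zinc finger factor, 2567 counts at 8 h. Each of the 3 genes lies beside a gene whose counts were on the 4 h side. These were PRDX2 for JUNB, OVOL3 for TBCB, which had 5922 counts at 4 h and no entry at 8 h, and TAPBP for ZBTB22, which had 264 CPM at 4 h and 85.7 CPM at 8 h. In the other direction, 1790 genes were listed only at 4 h, with 1.07% of its counts, and 1718 of them were listed at 2 h.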

How the results depend on the processing

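With 1 library at each time, and all animals combined in each, differences between the times and between the libraries cannot be told apart, and depth per nucleus differed too. TMM, DESeq2 size factors, thinning of the 4 h library and leaving out the 12 shared barcodes kept the counts of higher and lower genes within 1.5 times of 156 and 1363. Higher genes numbered 103 with each gene counted once per nucleus, 243 with each nucleus weighted equally and 360 after centring by level. With a minimum of 1000 counts, 58 genes were higher and 512 lower, with a 2-fold limit 78 and 652, and with adjacent genes summed 55 and 354.

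Medians of lists are given here as differences from that of all genes. With each gene counted once per nucleus, the quiescence and homing list was at 0.015 in place of -0.45, and the AP-1, IRF and STAT, and negative regulator lists were at 0.20, 0.15 and 0.18 in place of 0.08, 0.00 and 0.05. With nuclei weighted equally, the NF-kB list was at -0.083 in place of 0.05, and the IRF and STAT list at -0.086. After centring by level, the AP-1, IRF and STAT, and negative regulator lists were at -0.025, -0.080 and -0.022. With adjacent genes summed, the negative regulators were at -0.080 and the quiescence and homing list at -0.26. The interferon-stimulated, inflammatory, receptor, MHC class II and myeloid lists stayed within the counting error of their median gene under every alternative. That interval was wide, the widest of these lists being -0.24 to 0.48 for MHC class II, so that staying within it does not mean unchanged. With adjacent genes summed, the interferon-stimulated list moved toward all genes, as given above.

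Of 590 values of the 59 named genes under alternatives, 483 stayed within their counting interval, 95 moved and 12 turned their direction, all when summed with the adjacent genes. Their log2 ratios then were -0.025 for CNP, -0.25 for TAGLN2, -0.026 for FBXO9, -0.20 for HSPA2, 0.16 for C7H19orf38, 0.080 for PRDX2, 0.068 for CBARP, 0.34 for LY96, 0.037 for IFI6, -0.080 for SOCS1, -0.27 for ID2 and -0.063 for CEBPB. The cause of these moves was not tested, except that a sum of neighbours contains their counts by construction.

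Counts of genes with a counting interval that excludes 1 were 6069 of 11404 from halved counts and 7409 from the counts as deposited. Genes with fewer than 10 UMIs, in place of none, took 3.16% of the counts at 4 h and 3.09% at 8 h. At 2000 counts per nucleus, the median was 1432 genes at 4 h and 1275 at 8 h.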

Other observations

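Housekeeping families differed little between the libraries. The 69 genes of cytosolic ribosomal proteins had a median log2 ratio of 0.10, with 0 genes past 1.5-fold in either direction, and the 33 proteasome genes one of 0.08, also with 0 genes. The 39 genes of complex I had a median of 0.11, and 1 of 57 mitochondrial ribosomal protein genes was at least 1.5-fold lower. Among 167 zinc finger genes, 10 were lower and 1 was higher.

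Families of receptors and channels held more lower genes than the 12.0% of all genes. Of 36 potassium channel genes, 17 (47.2%) were at least 1.5-fold lower, with median levels of 36.2 CPM at 4 h and 20.8 CPM at 8 h. Of 18 genes of the TNF ligand and receptor superfamilies, 7 (38.9%) were lower, and the median over the family was -0.37, or -0.34 after centring by level. Chemokine receptors had 3 lower genes of 10, and interleukin receptors 5 lower and 1 higher of 25. After centring by level, the medians were -0.32 for potassium channels, -0.18 for chemokine receptors and -0.24 for interleukin receptors, in place of -0.48, -0.40 and -0.28. The families were grouped by symbol after the data were seen. Except for interleukin receptors at 4 h, their median levels were below those of the housekeeping families. Lower values were more frequent at low level among all genes.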
